A study of Mus musculus with 4 samples.

Results

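The mitochondrial tricarboxylic acid (TCA) cycle was followed in lung tumors through 8 genes, namely citrate synthase (Cs), the NADP-dependent isocitrate dehydrogenase Idh2, the catalytic subunit Idh3a of the NAD-dependent isocitrate dehydrogenase, Ogdh, Suclg1, fumarate hydratase (Fh1), mitochondrial malate dehydrogenase (Mdh2) and glutamate dehydrogenase (Glud1). They were taken by gene symbol from a table of raw read counts of 39017 genes, in which each symbol had 1 row, and all 8 were among the 14225 genes with a mean of at least 1 CPM, the read count scaled to a library of 1e+06 reads. RNA was sequenced from 4 lung tumors of male C57BL/6 KP mice, 1 library per tumor and 1 group, labelled Control, so that the measurement is the level of each gene and its spread between tumors. KP mice, which develop lung adenocarcinoma after Cre is delivered to the lung, carry p53 Fl/Fl, from which Cre removes p53. Each mouse had been given 1500 viral units of the Cre lentivirus lenti.PGK-Cre through the trachea, and tumors were collected 22 weeks and 5 days later. The general PGK promoter does not restrict Cre to 1 lung cell type. The dissected tumors were dissociated to single cells, and RNA came from the whole suspension with no removal of immune or stromal cells. The labels also give the genotype heterozygous fl/wt without a gene name, the headers of the table of log2 values call each tumor WT, and the study's methods allow control animals to be Slc2a1 wild type or to carry a single floxed copy of it. The labels do not say whether the tumors came from separate mice, which means that the p-values measure the spread between these 4 samples and that this spread may be technical.

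The TCA cycle runs in the mitochondrial matrix and oxidizes the acetyl group of acetyl-CoA while it passes electrons to the respiratory chain. Pyruvate feeds it through acetyl-CoA and oxaloacetate, and glutamine feeds it as glutamate, which glutamate dehydrogenase or aminotransferases turn into alpha-ketoglutarate. Lung tumors are known to draw on both glucose carbon and amino acids for the cycle, and citrate that leaves the mitochondrion supplies lipid synthesis. All 8 members are encoded in the nucleus, whereas some respiratory chain subunits are encoded by the mitochondrial genome, for which the tables list 37 genes at 0 counts in all tumors, so that the transcripts of that genome could not be assessed.

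Total counts per tumor were 8151613 to 8799007, and members were counted between 333 and 3459 times in a tumor. Across the tested genes, log2 CPM of 2 tumors correlated with r between 0.900 and 0.961 (genes are not independent replicates). The alveolar type 2 markers Sftpc, Sftpb, Sftpa1, Abca3, Lamp3, Slc34a2 and Napsa, which mark the surfactant-producing cells of the alveolus, were summed to 31380 CPM in tumor 1 and to 51106 to 58401 CPM in the other 3 tumors, which is the lung epithelium that the label of a lung tumor implies. Sftpc alone gave 17722 CPM in tumor 1 and 24926 to 29617 CPM in the others. Of the markers, 5 were lowest in tumor 1, whereas Sftpb and Abca3 were lowest in tumor 3. Trp53 was at 9.75 to 13.0 CPM, and without an undeleted sample its loss could not be checked. In tumor 1 the 5 epithelial markers summed to 4430 CPM against 2660 to 2819 CPM elsewhere. Of these, 4 were highest in tumor 1, whereas Cdh1 was lowest there (842 CPM against 846 to 887). In tumor 3 leukocyte markers (206 CPM against 87.6 to 121), T cell markers (18.0 against 1.87 to 3.57) and B and plasma cell markers (34.8 against 4.73 to 7.37) had their highest sums. Only 2 of 4 T cell markers and 1 of 4 B and plasma cell markers passed the filter of 1 CPM, so that these sums rest on few genes. In these bulk samples, fewer cells of a type and less RNA per cell cannot be told apart.

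The 8 members together amounted to 1410, 1404, 1198 and 1253 CPM in tumors 1 to 4, a mean of 1316 ± 107 (SD, n = 4) and 0.119 to 0.146% of all counts. Tumors 1 and 2 were close to each other and above tumors 3 and 4, and the highest sum was 1.18 times the lowest. Glud1 and Cs varied most between tumors, in opposite directions for tumor 1, and Fh1 varied least. All 8 members varied by more than counting noise (chi-square test with Poisson noise as the null, Benjamini-Hochberg adjusted over all genes tested), but so did 76.7% of all tested genes, and 85.3% of those with a mean of at least 10 CPM, so that the count says little about these genes. The sizes were moderate. The highest tumor was 1.12 to 1.62 times the lowest, with a median over members of 1.31 against 1.58 over all tested genes. Of the members, 1 passed a ratio of 1.5, which 56.9% of tested genes did, and 0 passed a ratio of 2, which 28.5% did. These comparisons were not matched for level. All tested genes had a median level of 27.4 CPM, whereas the members had means of 44.5 to 304 CPM. The median SD of log2 CPM was 0.182 for the members and 0.294 for all tested genes. For genes with a mean of at least 40 CPM it was 0.225, closer to the members.

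**Figure D1:**
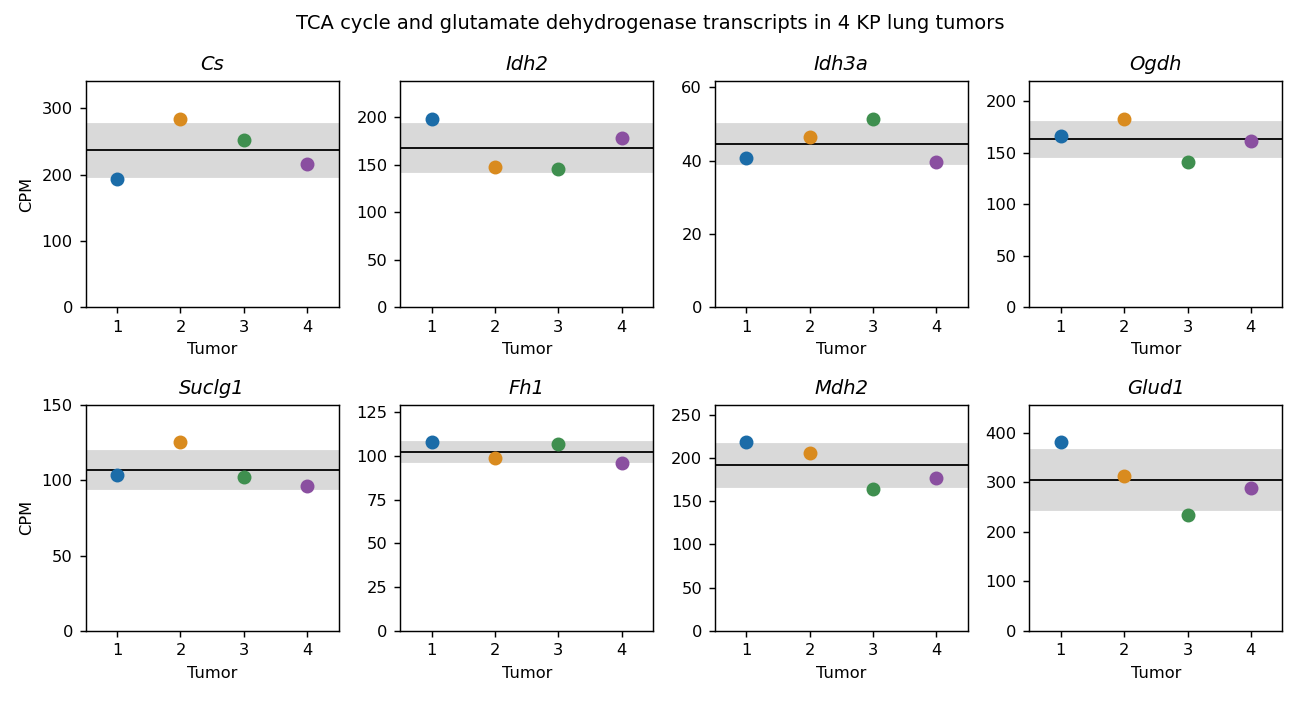
CPM (vertical axes, each from 0 and each with its own scale) of the 8 members in tumors 1 to 4 (horizontal axes), with the mean as a line and 1 SD on either side in grey. Fh1 stays between 96.1 and 108 CPM, whereas Glud1 runs from 234 CPM in tumor 3 to 381 CPM in tumor 1 and Cs from 194 CPM in tumor 1 to 284 CPM in tumor 2.

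The upstream sequences of the members at the ends of this range are shown so that the most and the least variable genes can be compared. The sequences are the 250 bases before the start of Glud1 and Cs, which had the largest ratios of highest to lowest tumor, and of Fh1, which had the smallest. They come from RefSeq on GRCm38.p6, which has such windows for 7 of the 8 members, and are written 5′ to 3′ on the strand of the gene. Capitals mark matches on either strand. The letters searched were GGGCGG for the GC box and the eponymous letters for the CCAAT box. An ETS motif was searched as CCGGAAG. The core of the motif of nuclear respiratory factor 1 (NRF1) was searched as GCATGCGC. The Glud1 window lies at chr14:34310477-34310726 on the plus strand, the Cs window at chr10:128337477-128337726 on the plus strand and the Fh1 window at chr1:175625636-175625885 on the minus strand.
Glud1: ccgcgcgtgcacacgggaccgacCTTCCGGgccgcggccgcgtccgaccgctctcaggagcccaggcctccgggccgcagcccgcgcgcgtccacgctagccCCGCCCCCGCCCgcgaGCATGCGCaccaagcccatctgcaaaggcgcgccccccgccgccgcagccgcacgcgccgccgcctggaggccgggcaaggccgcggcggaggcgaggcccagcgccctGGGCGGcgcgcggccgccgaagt
Cs: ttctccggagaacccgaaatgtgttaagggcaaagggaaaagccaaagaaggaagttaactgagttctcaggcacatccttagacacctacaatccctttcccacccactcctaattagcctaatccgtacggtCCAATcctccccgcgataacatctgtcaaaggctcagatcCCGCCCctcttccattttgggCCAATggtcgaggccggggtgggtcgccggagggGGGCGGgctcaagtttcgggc
Fh1: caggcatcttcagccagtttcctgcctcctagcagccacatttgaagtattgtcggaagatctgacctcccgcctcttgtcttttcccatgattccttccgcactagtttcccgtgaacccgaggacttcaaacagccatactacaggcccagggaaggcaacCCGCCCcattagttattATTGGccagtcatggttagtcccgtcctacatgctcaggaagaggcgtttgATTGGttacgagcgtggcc

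The Glud1 window had 82.0% G and C, against 55.2% for Cs, 52.8% for Fh1 and a median of 52.4% over 32851 RefSeq windows. Up to 17 of its bases overlap an annotated exon. The GC box was found in 6 of the 7 members with a window (all but Suclg1) and in 32.7% of all windows, and the CCAAT box was found in 4 (Cs, Fh1, Idh2 and Ogdh) and in 33.8% of all windows. The ETS motif was in 1 member, Glud1, and in 6.91% of all windows. The NRF1 core was in Glud1 and Ogdh and in 2.26% of all windows, whereas the longer palindromic NRF1 motif that contains this core was in 0 members and 0.782% of windows. The E-box CACGTG was in Ogdh alone among the members and in 6.02% of windows, and the estrogen-related receptor half-site AAGGTCA was in 0 members and 4.08%. Ogdh has 6 windows and therefore more chances of a match than a gene with 1. These matches describe letters in a window and were not tested as binding sites.

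Cs (ENSMUSG00000005683, chromosome 10, 128337734 to 128362479, plus strand, 11 exons in its longest coding transcript, GRCm38) encodes citrate synthase, which joins acetyl-CoA to oxaloacetate and so opens the cycle. It had 194, 284, 252 and 216 CPM in tumors 1 to 4, a mean of 236 ± 39.9 (SD, n = 4). Tumor 1 was the lowest and tumor 2 the highest, with a ratio of 1.47 (95% interval 1.38 to 1.56, counting error only). The spread was beyond counting noise (chi-square, adjusted p 2.79e-37), and its SD on the log2 CPM scale was 0.24, which was above that of 39.5% of all tested genes and of 55.7% of those with a mean of at least 40 CPM.

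Idh2 (ENSMUSG00000030541, chromosome 7, 80094846 to 80115392, minus strand, 11 exons) encodes the mitochondrial isocitrate dehydrogenase that makes NADPH and can also run in reverse. It had 199, 148, 146 and 178 CPM in tumors 1 to 4 (mean 168 ± 25.5, SD, n = 4). Tumors 1 and 4 were above tumors 2 and 3, and the highest was 1.36 times the lowest (95% interval 1.27 to 1.47, adjusted p 5.34e-21 by chi-square). Idh3a (ENSMUSG00000032279, chromosome 9, 54586334 to 54604661, plus strand, 11 exons) encodes the catalytic subunit of the NAD-dependent enzyme that carries the forward reaction of the cycle. It was the member with the fewest counts and had 40.6, 46.5, 51.5 and 39.6 CPM (mean 44.5 ± 5.52, SD, n = 4). Here the order was the other way round, with tumors 2 and 3 above tumors 1 and 4 and a ratio of 1.30 (95% interval 1.12 to 1.51, adjusted p 0.00106 by chi-square). Without tumor 3 the adjusted p was 0.0907 (chi-square), so that the call of Idh3a rested on that tumor. Per kilobase of coding transcript, Idh2 was therefore 7.24, 4.70, 4.19 and 6.64 times Idh3a in tumors 1 to 4, and this ratio had an SD of 0.38 on the log2 scale, against 0.22 for Idh2 and 0.18 for Idh3a alone. The cytosolic Idh1, which makes NADPH outside the mitochondrion, was higher per kilobase than Idh2 in all 4 tumors, with an Idh2 to Idh1 ratio of 0.344 to 0.577. Of the other subunits of the NAD-dependent enzyme, Idh3b had 123, 115, 107 and 126 CPM and was lowest in tumor 3, where Idh3a was highest, whereas Idh3g had 84.5, 79.3, 116 and 87.3 CPM and was, like Idh3a, highest there. Exons of Idh3b overlap Nop56 on the opposite strand, which had 688 counts in tumor 3 and 810 to 1142 in the others and was also lowest there, and because the strand setting of the counting is not given, the count of Idh3b is uncertain. Per kilobase, Idh3a was 0.197 to 0.302 of Idh3b and 0.230 to 0.302 of Idh3g.

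Ogdh (ENSMUSG00000020456, chromosome 11, 6291633 to 6356642, plus strand, 23 exons) encodes the first component of the alpha-ketoglutarate dehydrogenase complex, the step that carbon from glutamine enters. It had 166, 183, 141 and 161 CPM in tumors 1 to 4 (mean 163 ± 17.3, SD, n = 4). Tumor 2 was the highest and tumor 3 the lowest, with a ratio of 1.30 (95% interval 1.20 to 1.40, adjusted p 1.71e-09 by chi-square). Its partners in the complex ordered the tumors differently. Dlst, the succinyltransferase component, had 199, 152, 182 and 165 CPM, and Dld, the dihydrolipoyl dehydrogenase shared with pyruvate dehydrogenase, had 144, 131, 172 and 129 CPM, so that both were lower in tumor 2 than in tumors 1 and 3. Per kilobase of coding transcript, Ogdh was 0.504 to 0.859 of Dld and 0.520 to 0.809 of Dlst, and in both cases tumor 3 had the lowest and tumor 2 the highest ratio. Dld shares near-identical stretches with other transcripts, so that its count is uncertain. Ogdhl, a paralog of Ogdh, was at 18.3, 9.41, 1.85 and 8.56 CPM and had the widest range of the glutamine list, with a highest tumor 9.87 times the lowest. Ogdh was 8.22 to 68.7 times Ogdhl per kilobase. The value of 68.7 and the ratio of 9.87 rest on 15 counts of Ogdhl in tumor 3. The 95% interval of the latter was 5.81 to 18.0 (counting error only).

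Suclg1 (ENSMUSG00000052738, chromosome 6, 73248382 to 73276911, plus strand, 9 exons) encodes the alpha subunit of succinyl-CoA ligase, which makes a nucleoside triphosphate directly and pairs with either an ATP-forming subunit (Sucla2) or a GTP-forming subunit (Suclg2). It had 103, 125, 102 and 96.2 CPM in tumors 1 to 4 (mean 107 ± 12.8, SD, n = 4). Tumor 2 was above the others, which lay close together. The highest tumor was 1.30 times the lowest (95% interval 1.19 to 1.43, adjusted p 4.47e-08 by chi-square). Without tumor 2, the ratio was 1.07 and the adjusted p 0.327 (chi-square), so that the variation of Suclg1 rested on that tumor. Its Dixon ratio, the gap from tumor 2 to the next tumor divided by the full range on the log2 CPM scale, was 0.727 and below the 95% limit. The beta subunits ordered the tumors differently from Suclg1 and from each other. Sucla2 had 66.8, 85.3, 78.1 and 94.2 CPM, and Suclg2 had 82.6, 122, 60.3 and 98.8 CPM, the widest range among the other TCA cycle enzymes with a ratio of 2.02. Suclg2 shares a near-identical stretch with a processed pseudogene, and its count is uncertain. Per kilobase of coding transcript, Suclg1 was above Sucla2 by 1.5 to 2.27 times and above Suclg2 by 2.16 to 3.75 times. This depends on the length used, which for Suclg1 is 1519 nt for the longest coding and 2767 nt for the longest annotated transcript. With the latter, the mean was 38.6 ± 4.61 CPM per kilobase for Suclg1, 36.4 ± 5.20 for Sucla2 and 27.0 ± 7.68 for Suclg2 (SD, n = 4).

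Fh1 (ENSMUSG00000026526, chromosome 1, 175600374 to 175625635, minus strand, 10 exons) encodes fumarase, which hydrates fumarate to malate. It had 108, 98.7, 107 and 96.1 CPM in tumors 1 to 4 (mean 102 ± 5.85, SD, n = 4), the narrowest range of the members. The highest tumor was 1.12 times the lowest (95% interval 1.02 to 1.23), and the SD of 0.08 on the log2 CPM scale was above that of 3.74% of all tested genes and of 5.75% of the 5668 genes with a mean of at least 40 CPM. The adjusted p of its chi-square test was 0.0464 with all tumors and 0.0575, 0.101 and 0.168 without tumor 3, 1 and 4, so that a spread beyond counting noise depended on each of these tumors. Kmo overlaps Fh1 on the opposite strand outside its exons and had 4 to 13 counts. Succinate dehydrogenase, which makes the fumarate, was measured by 4 subunits. Sdha, its flavoprotein, had 301, 292, 359 and 272 CPM. Fh1 per kilobase was 0.327 to 0.394 of Sdha, with the lowest ratio in tumor 3, where Sdha was highest. The other subunits were highest elsewhere, Sdhb (69.8 CPM) and Sdhc (93.1 CPM) in tumor 1 and Sdhd (139 CPM) in tumor 2. Ratios of Fh1 to these subunits were not taken.

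Mdh2 (ENSMUSG00000019179, chromosome 5, 135778480 to 135790398, plus strand, 9 exons) encodes the malate dehydrogenase that returns oxaloacetate to citrate synthase and also serves the malate-aspartate shuttle. It had 218, 207, 165 and 178 CPM in tumors 1 to 4 (mean 192 ± 24.8, SD, n = 4). Tumors 1 and 2 were above tumors 3 and 4, with a ratio of highest to lowest of 1.32 (95% interval 1.23 to 1.42, adjusted p 5.25e-17 by chi-square). Mdh1, the cytosolic form, was nearly level at 224, 226, 227 and 211 CPM, and Mdh2 per kilobase of coding transcript was 1.06 to 1.42 times Mdh1. Which of these genes is higher depends on the length used. The longest coding transcript is shorter for Mdh2 than for Mdh1 (1456 and 2122 nt), whereas the summed exons are longer (3562 and 2567 nt). Got2, the mitochondrial aspartate aminotransferase that consumes oxaloacetate and glutamate in the same shuttle, had 218, 180, 147 and 155 CPM and kept a narrow ratio with Mdh2, which was 1.74 to 1.99 times Got2 per kilobase (SD 0.09 on the log2 scale). Got2 has near-identical copies, so that its level is uncertain. The pair was chosen after levels were seen, and many genes follow a pattern over 4 tumors closely. Of 10268 other genes with a mean of at least 10 CPM, 5.92% came within a root mean square difference of 0.1 of Mdh2 in centered log2 CPM. This limit is looser than the closeness of Got2 to Mdh2, and the share at that closeness was not taken.

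Glud1 (ENSMUSG00000021794, chromosome 14, 34310727 to 34345265, plus strand, 13 exons) encodes glutamate dehydrogenase, which releases ammonia from glutamate and delivers alpha-ketoglutarate. It had 381, 312, 234 and 288 CPM in tumors 1 to 4 (mean 304 ± 60.7, SD, n = 4). Tumor 1 was the highest and tumor 3 the lowest, with a ratio of 1.62 (95% interval 1.54 to 1.72, adjusted p 5.92e-66 by chi-square). Without tumor 3 the ratio was 1.32. Glud1 shares a stretch of 656 nt with the processed pseudogene Glud-ps and 287 nt with Gm43444, at 97% identity or more, so that its count is uncertain. Its SD on the log2 CPM scale was 0.29, about the median of all tested genes, and was above that of 66.2% of genes with a mean of at least 40 CPM. The tumor with the most Glud1 was the tumor with the least Cs, and per kilobase of coding transcript Glud1 was 1.70, 0.947, 0.803 and 1.15 times Cs. This was the widest range among the 28 pairs of members, with an SD of 0.46 on the log2 scale.

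Among the genes of glutamine and glutamate handling, Gpt2, the mitochondrial alanine aminotransferase that also turns glutamate into alpha-ketoglutarate, had 26.5, 45.5, 53.6 and 38.8 CPM and was lowest in tumor 1 and highest in tumor 3, with a Glud1 to Gpt2 ratio per kilobase of 15.4 in tumor 1 and 4.70 in tumor 3. Got2, in contrast, put the tumors in the same order as Glud1, with a ratio of Glud1 to Got2 per kilobase of 1.19 to 1.39 (SD 0.09 on the log2 scale). By the same measure as for Mdh2, 4.40% of 10268 other genes came within 0.1 of Glud1, again a looser limit than the closeness of Got2. Glul, the glutamine synthetase that runs the reverse way, had 39.8 to 45.8 CPM and was not shown to vary beyond counting noise (adjusted p 0.317 by chi-square). The glutamine transporter Slc1a5 had 130, 129, 153 and 166 CPM. Gls2, the liver-type glutaminase, was at 6.38 CPM in tumor 1 and at 1.05 to 1.85 CPM in the other 3. Glul and Gls2 share stretches with other annotated transcripts, so that their counts are uncertain.

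**Figure D2:**
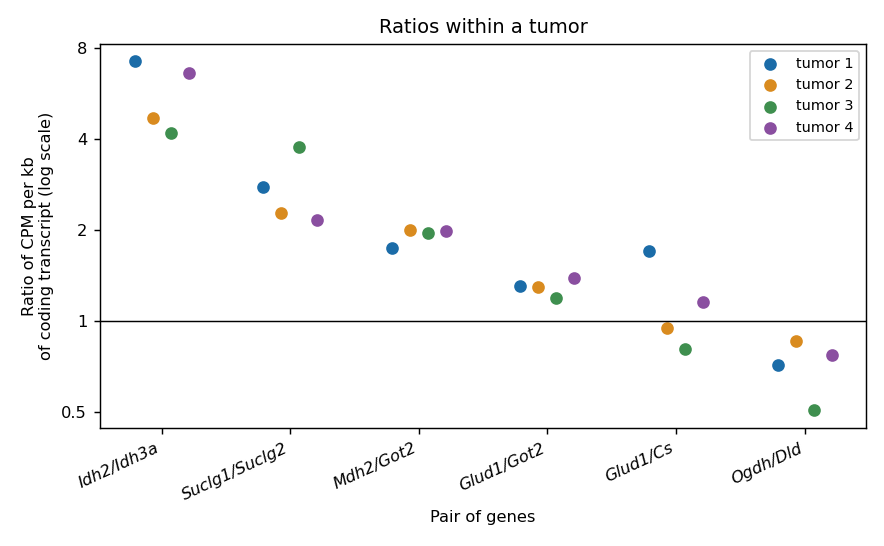
Ratio of CPM per kilobase of coding transcript (vertical axis, log scale) of 6 pairs of genes (horizontal axis) in tumors 1 to 4 (colors), with the line at a ratio of 1. The ratios to Got2 stay within 1.74 to 1.99 for Mdh2 and 1.19 to 1.39 for Glud1, whereas Glud1 to Cs runs from 0.803 to 1.70 and crosses 1. The pairs were chosen after levels were seen.

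Compared per kilobase of the longest annotated transcript, the members were ordered as follows. Mdh2 (119 ± 15.5 CPM per kilobase), Idh2 (93.6 ± 14.2), Glud1 (89.6 ± 17.9) and Cs (78.7 ± 13.3) were the highest, followed by Ogdh (39.5 ± 4.20), Fh1 (38.8 ± 2.22) and Suclg1 (38.6 ± 4.61), and Idh3a was the lowest with 17.3 ± 2.14 (SD, n = 4 for each). Mdh2 was above Idh2 in 4 of 4 tumors by a mean log2 difference of 0.36 ± 0.21, Cs above Ogdh by 0.99 ± 0.27 and Suclg1 above Idh3a by 1.16 ± 0.19 (SD). For each of these 3 neighbors, the exact two-sided sign-flip permutation test gave the smallest p that 4 tumors allow (1 in 8) and an adjusted p of 0.292 over 7 neighbor pairs, so that no step of the order could pass 0.05. The other neighbors, Idh2 and Glud1, Glud1 and Cs, Ogdh and Fh1, and Fh1 and Suclg1, did not differ beyond their spread (exact p 0.5 to 1). The order depends on the transcript length used. The longest annotated transcript of Suclg1 (2767 nt) is not among its coding transcripts. Per kilobase of the longest coding transcript (1519 nt), Suclg1 was at 70.3 ± 8.40, between Cs at 80.8 ± 13.7 and Ogdh at 39.5 ± 4.20. Per kilobase of summed exons, the mean log2 difference of Mdh2 minus Idh2 was -0.26, the reverse of the order above. Idh3a was the lowest member on all 3 of these scales.

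**Figure D3:**
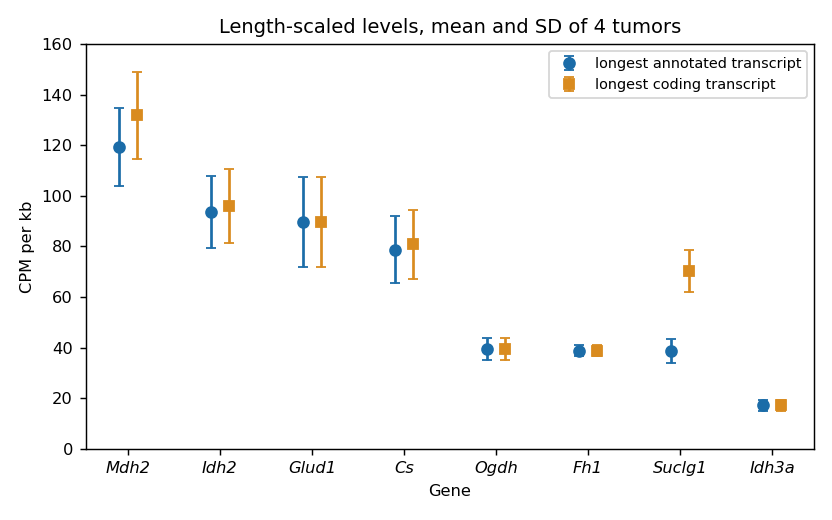
Mean CPM per kilobase (vertical axis) of the 8 members (horizontal axis), scaled by the longest annotated transcript (circles) and by the longest coding transcript (squares), with bars of 1 SD over 4 tumors. Mdh2 is the highest at 119 and Idh3a the lowest at 17.3, and the choice of transcript moves Suclg1 from 38.6 to 70.3.

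The proportions of the members to each other were taken within tumors. The SD of the log2 ratio over the 28 pairs was between 0.11 for Ogdh and Mdh2 and 0.46 for Cs and Glud1, with a median of 0.22. Mdh2 and Glud1 (SD 0.13) and Ogdh and Suclg1 (0.13) also kept close ratios. The wide ratios were those of Cs or Idh3a on one side with Idh2 or Glud1 on the other, with 0.45 for Cs and Idh2, 0.43 for Idh3a and Glud1 and 0.38 for Idh2 and Idh3a. These values are ratios within a tumor and do not depend on how the libraries were scaled. Without tumor 1 the SD for Cs and Glud1 was 0.26.

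Of the 8 members, 4 were highest in tumor 1 (Idh2, Fh1, Mdh2 and Glud1), 3 in tumor 2 (Cs, Ogdh and Suclg1), 1 in tumor 3 (Idh3a) and 0 in tumor 4. Among all tested genes the shares were 31.4%, 20.4%, 30.1% and 18%. Tumor 3 was the lowest for 4 members (Idh2, Ogdh, Mdh2 and Glud1), tumor 4 for 3 (Idh3a, Suclg1 and Fh1), tumor 1 for 1 (Cs) and tumor 2 for 0, against 32.6%, 17.7%, 30.3% and 19.4% of all tested genes. In 0 of 8 members did 1 tumor stand apart by Dixon's ratio, which 5.86% of tested genes showed. The biological coefficient of variation estimated by edgeR was 16.8% for Fh1 to 21.5% for Glud1, and 30.5% of tested genes had a lower value than Glud1. DESeq2 gave 12.6% for Fh1 and 19.7% for Glud1. Both methods draw the value of a gene toward those of other genes, and the common value of edgeR was 30.8%. Mdh1, not shown to vary beyond counting noise (adjusted p 0.139 by chi-square), still had 16.5% by edgeR. The low values are therefore not the variation of the gene alone.

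**Figure D4:**
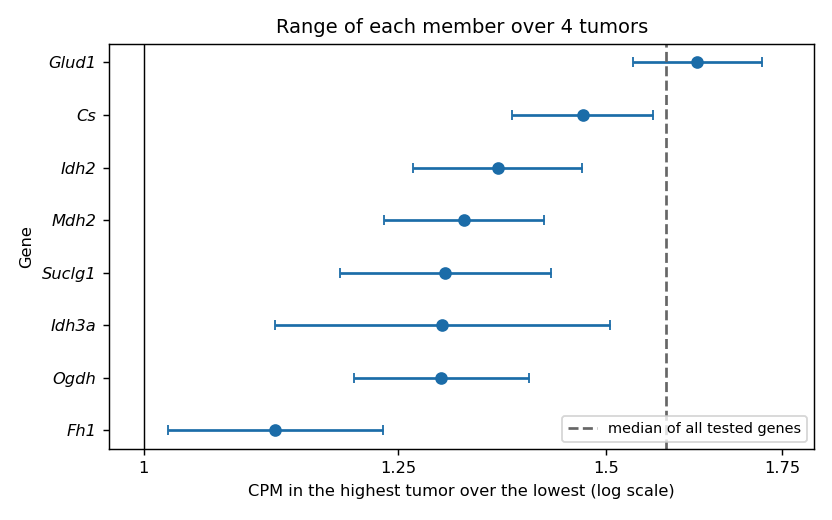
CPM in the highest tumor over that in the lowest (horizontal axis, log scale) for each of the 8 members (vertical axis), with 95% intervals that cover counting error only. Glud1 at 1.62 is the only member to the right of the dashed line at 1.58, the median of all tested genes, and Fh1 at 1.12 is the lowest. The line is not matched for level, since the tested genes have a median level of 27.4 CPM, below the mean of every member.

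The sums of other markers also differed between the tumors in which members were high or low. In tumor 1, where Glud1, Mdh2 and Idh2 were highest and Cs lowest, the club cell markers summed to 36.4 CPM against 521 to 878 CPM elsewhere, and the 5 proliferation markers to 557 CPM against 369 to 450. In tumor 3, Glud1, Mdh2, Ogdh and Idh2 were lowest and Idh3a highest. There, 4 of 4 leukocyte markers and 4 of 5 macrophage markers had their highest values. The macrophage markers summed to 248 CPM against 148 to 169, but C1qa among them was lowest in tumor 3 (25.7 CPM against 30.4 to 41.9). Red blood cell markers summed to 110 CPM in tumor 3 and to 32.3 to 45.1 in the others, and endothelial markers to 215 against 166 to 169. Of the 4 endothelial markers, however, 2 were highest in tumor 3, 1 in tumor 1 and 1 in tumor 2. The fibroblast markers went different ways, since Dcn (138 CPM) and Pdgfra (35.0 CPM) were highest in tumor 3 and lowest in tumor 1, whereas Col1a1 (125 CPM) and Col1a2 (177 CPM) were highest in tumor 1. The heart and skeletal muscle markers, a tissue with many mitochondria, summed to 137, 207, 323 and 601 CPM in tumors 1 to 4, but Myh7 alone gave 132 to 596 of this. Brown fat markers reached at most 0.348 CPM and Ucp1 was at 0 counts. The part of these other cell types in the levels of the members was not tested.

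The neighbors of the members in metabolism were read from lists of genes by role. All 11 other TCA cycle enzymes varied beyond counting noise. So did 76.7% of all tested genes and 85.3% of those with a mean of at least 10 CPM. The 11 had a median SD of 0.17 on the log2 CPM scale, against 0.18 for the members and 0.29 for all tested genes. Genes with a mean of at least 40 CPM had 0.225. Of the 11 enzymes, 1 (Suclg2) passed a ratio of 1.5. Sdha had the most counts, with 306 ± 37.5 CPM (SD, n = 4). Over members and other enzymes together, 19 of 19 TCA cycle genes varied beyond counting noise (76.7% of all tested genes) and 2 passed a ratio of 1.5 (56.9%). The summed CPM of the 11 was 1513, 1503, 1562 and 1421 in tumors 1 to 4, and 3 of them were highest in tumor 3, as were 30.1% of all tested genes. The glutamine and glutamate genes were near the values of all genes, with 9 of 12 tested genes beyond counting noise (76.7% of all), a median SD of 0.28 (0.29), 7 above a ratio of 1.5 (56.9%) and 4 above 2 (28.5%), namely Gls2, Got1, Gpt2 and Ogdhl. Of these 12 genes, 6 were highest in tumor 3 (30.1% of all tested genes) and 3 were lowest there (32.6%). Slc25a18 did not pass the filter.

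Of 7 genes of pyruvate entry, 5 were highest in tumor 3 and the other 2, Pdhb (69.7 CPM) and Dlat (46.0 CPM), were lowest there, against 30.1% and 32.6% of all tested genes. Of the 5, Pdha1 was nearly level in tumors 2 and 3, and Pdhx was not called (adjusted p 0.0629 by chi-square). Pcx, the pyruvate carboxylase that fills the cycle with oxaloacetate, had 35.0, 45.4, 66.0 and 34.7 CPM, and the pyruvate carrier subunits Mpc1 and Mpc2 had 18.6, 22.5, 35.4 and 27.0 CPM and 42.9, 50.2, 76.6 and 43.8 CPM. Mpc1 has a near-identical pseudogene and Pdha1 shares a stretch with Map3k15, so that their counts are uncertain. Pdha1, the pyruvate dehydrogenase subunit with the most counts, had 226, 284, 286 and 243 CPM and was, like Cs, lowest in tumor 1. Of the 7 genes, 6 varied beyond counting noise (76.7% of all tested genes) and 3 passed a ratio of 1.5 (56.9%).

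Among the exits and cytosolic counterparts, 8 of 10 tested genes varied beyond counting noise (76.7% of all tested genes) and 5 passed a ratio of 1.5 (56.9%). Me1, the cytosolic malic enzyme, had the most counts, with 460, 792, 520 and 511 CPM, but shares near-identical stretches of up to 1716 nt with pseudogenes, so that its count is uncertain. Acly, which splits citrate in the cytosol for lipid synthesis, had 550, 554, 404 and 481 CPM, and Cs was 0.532, 0.776, 0.943 and 0.680 times Acly per kilobase, lowest in tumor 1. Idh1 had 558, 528, 559 and 407 CPM, and Me2, the mitochondrial malic enzyme, had 32.8, 30.7, 42.9 and 22.6 CPM. Pck1, the cytosolic gluconeogenic enzyme, was at 0 counts in all tumors, whereas its mitochondrial form Pck2 had 77.5, 78.4, 55.9 and 84.1 CPM, a count made uncertain by stretches shared with other transcripts.

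**Figure D5:**
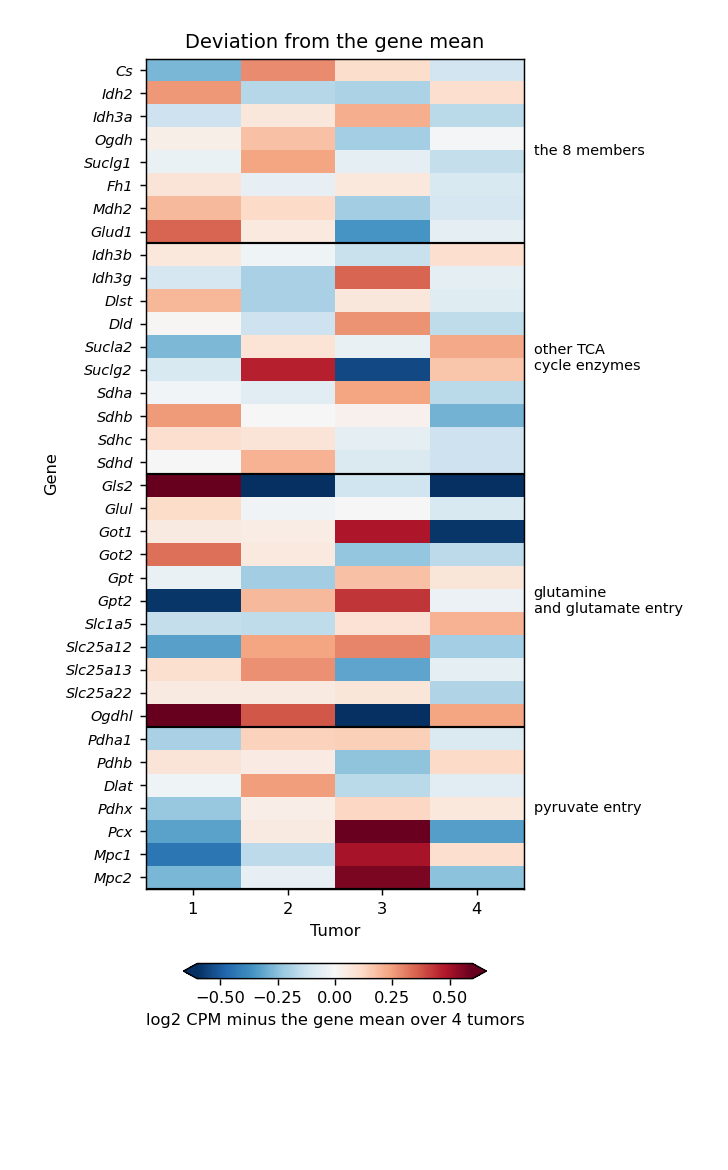
Log2 CPM minus the mean over 4 tumors (color, cut off at the ends of the scale) for the 8 members, 10 of the other TCA cycle enzymes, 11 of the tested glutamine and glutamate genes and the 7 pyruvate entry genes (rows) in tumors 1 to 4 (columns). In tumor 3, Pcx, Mpc1 and Mpc2 are high while Glud1, Mdh2 and Ogdh are low. Other rows go the other way there, with Idh3a, Idh3g, Dld and Sdha high and the pyruvate entry genes Pdhb and Dlat low.

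General mitochondrial genes gave a scale for the members. The 13 genes were those for mitochondrial import, chaperones, prohibitins and channels, and Tfam. Of these, 12 varied beyond counting noise (76.7% of all tested genes), with a median SD of 0.18. The summed CPM of the 13 was 2136, 2114, 1993 and 1916 in tumors 1 to 4, a highest over lowest ratio of 1.11. Hspd1 (405 ± 30.7 CPM) and Hspa9 (540 ± 42.7 CPM, SD, n = 4), both matrix chaperones, had the most counts, and Tomm40 (54.2, 29.7, 21.8 and 25.5 CPM) and Vdac3 (56.8, 92.3, 129 and 88.6 CPM) the widest ranges. The counts of Hspd1, Vdac3, Phb and Timm23 are uncertain because of near-identical pseudogenes. Timm23 had 11 to 21 counts in a tumor, against 90 to 291 for its pseudogene Gm10171. Relative to the geometric mean of all 13 genes in the same tumor, the ratio of highest to lowest tumor was 1.56 for Cs, 1.44 for Idh3a and 1.43 for Glud1, and 1.16 to 1.30 for the other 5 members. How these ratios depend on the uncertain genes was not tested. Among the regulators of mitochondrial genes, Ppargc1a, a coactivator, had 4.62, 21.3, 14.6 and 13.2 CPM, a ratio of 4.60, whereas the transcription factors Nrf1 and Gabpa had 27.8 to 36.2 and 68.2 to 83.5 CPM. Esrra, the estrogen-related receptor alpha, had 23.0 CPM in tumor 1 and 15.3 to 16.0 CPM in the other tumors. Exons of Gabpa and Esrra overlap other genes, so that their counts are uncertain.

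The genes whose pattern over the 4 tumors was nearest to that of each member were searched among 10268 other genes with a mean of at least 10 CPM, by the root mean square difference of log2 CPM after each gene was centered. With 4 tumors, many genes come close to any pattern, from 2.01% of these genes within 0.1 of Cs to 9.18% within 0.1 of Fh1. Among the nearest 3 were Parm1 and Mpzl2 for Cs (distances 0.018 and 0.022), and the nearest 3 were Nrarp, Card10 and Sike1 for Idh2 (0.0052 to 0.021), and Casp8ap2, Wdr41 and Tmem57 for Idh3a (0.0068 to 0.017). For Ogdh they were Marveld2, Brd1 and Tmed2 (0.011 to 0.014), for Suclg1 Exoc4, Dbr1 and Acap3 (0.0076 to 0.018), and for Fh1 Zfp418, Rufy2 and 1700066M21Rik (0.0086 to 0.015). For Mdh2 they were Mettl2, Ccdc64 and Hspa9-ps1 (0.0053 to 0.013), and for Glud1 Col4a2, Gm1815 and Slc37a4 (0.0033 to 0.012). Col4a2 had 462, 379, 285 and 348 CPM in tumors 1 to 4, the same order of tumors as Glud1.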

How the data were processed

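Reads had been trimmed by the authors with Cutadapt (version 1.4.2 per the labels' processing notes, a different one in their methods), aligned them to mm10 with HISAT2 and, per the same notes, counted them with featureCounts 1.4.4. The strand setting and the annotation release are not given in the sources used here. The deposited count tables hold raw counts per Ensembl gene with no normalization, and 156068 of 156068 values were equal between the combined and the single-tumor tables. The authors also deposited log2 normalized counts (TMM and voom), used here only as an alternative.

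CPM is the count per 1e+06 reads of the library total times its TMM factor (0.980 to 1.03; edgeR 4.0.16, R 4.3.3). Log2 CPM had 0.5 added to counts. A gene was tested where its CPM averaged 1 or more. For the variation of a gene, its 4 counts were set against Poisson noise in a chi-square test (3 degrees of freedom, Benjamini-Hochberg adjusted, called at 0.05). A tumor stood apart where Dixon's ratio passed its 95% limit. Ratio intervals are conditional Clopper-Pearson intervals at 95%. With 1 library per tumor, the intervals cover counting error only. Reads had no molecular identifiers, so that copies of 1 molecule could not be told apart. The intervals may therefore be too narrow and the chi-square p-values too small. The scripts were tested on simulated data. Positions are those of GENCODE M21 on GRCm38, which held 37607 of 39017 identifiers (96.4%). Of 137 list entries, 2 were matched by identifier. Near-identical copies share at least 80 nt at 97% identity (BLAST 2.17.0).

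The text names the 8 members, genes of the role lists that passed the filter (leading with the highest levels and largest ratios) and, for each member, the 3 genes nearest in pattern. Some genes and 1 allele that these rules would name are not reported here. Members and lists were chosen with earlier results of these data known, and the pairs of genes compared as ratios after levels were seen. The alternatives were other library scalings, filters, lengths and added counts, DESeq2 1.42.0 and leaving out each tumor.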

Additional observations from a re-analysis of the deposited data

Results flagged for a closer look

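Of 122 results, 9 had 1 tumor far from the other 3, as measured by the gap over the whole range of log2 values. The results were the members and their sum, tested genes of the role lists, and ratios of members to each other or of pairs of genes. Chance gives about 1 in 20 (6.1), and 5.86% of all tested genes had such a tumor. Ratios share genes, so that the 122 results are not independent. None of the 8 members alone was among the 9. Tumor 1 was the high one for Vdac1 (0.993), Esrra (0.889), Slc25a10 (0.858) and Phb (0.854), and tumor 4 was the low one for Slc25a22 (0.922), Tomm22 (0.880) and Mdh1 (0.838). Slc25a22 (adjusted p 0.528) and Mdh1 (0.139) were not shown to vary beyond counting noise by the chi-square test. The count of Phb is uncertain because of a near-identical pseudogene. Of the ratios of 2 members, tumor 3 was high for Idh3a to Ogdh (0.901) and tumor 2 was high for Suclg1 to Fh1 (0.837). For Vdac1, a channel of the outer mitochondrial membrane, the 4 tumors had 226, 181, 181 and 182 CPM. For Slc25a10, the dicarboxylate carrier, they had 142, 92.0, 92.7 and 86.3 CPM.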

How the results depend on the processing

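No paired analysis was possible because the tumors form 1 group. Of the 281 recomputed values, 250 stayed on their side of any threshold and within the limits of size set for them. Differences between neighbors in level that were within their spread changed sign under at least 1 alternative, namely Idh2 minus Glud1, Glud1 minus Cs, Ogdh minus Fh1 and Fh1 minus Suclg1. With a mean TPM of at least 20, the study's stated filter, fewer genes were tested and 6562 varied beyond counting noise against 10905, and all 8 members did. Leaving out 1 tumor gave 6 to 7 members beyond counting noise. Members above a ratio of 1.5 were 0 to 1, with 0 without tumor 1 and without tumor 3. Relative to the mitochondrial reference, which includes genes of uncertain count, the 1 member above 1.5 was Cs and not Glud1. Mdh2 minus Idh2 was -0.26 on the log2 scale per kilobase of summed exons, which sum all annotated isoforms. Fh1 lost its call without tumor 1, 3 or 4 and, with no filter on low counts, had an adjusted p of 0.0646 (chi-square). Idh3a lost its call without tumor 3 (adjusted p 0.0907), the cause of which was not tested. The median ratio of highest to lowest tumor stayed between 1.27 and 1.34. Scaling by the longest coding transcript was an alternative added after seeing the data. The ratios of pairs of genes per kilobase use that length only.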
